A study of Mus musculus with 4 samples.

Results

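Mitosis and kinetochore genes were described here as a set of 50 members, chosen by name for their roles in entering, carrying out and leaving mitosis, of 32285 genes in each count table. All 50 were found in all 4 tables. The cells were mouse muscle stem cells of the genotype MyoD-KI, kept 5 days in growth medium with fetal bovine serum and sorted by flow cytometry for high MyoD-tdTomato, a red fluorescent reporter of the muscle transcription factor MyoD. All 4 tables carry this 1 label set as replicates 1 to 4, so genotype, reporter, culture and sort are shared by every cell, and reporter-low cells were not analysed here. Cells were compared within the sort, by their level of Myog, a transcription factor that marks the onset of muscle differentiation, and by detection of Pax7, a transcription factor of muscle stem cells. How many animals were pooled and how the knock-in allele drives the reporter are not given in the sources used here.

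Before division a cell copies its DNA, and cyclin-dependent kinase Cdk1 with its cyclins then drives it into mitosis. Chromosomes condense and are pulled apart by microtubules attached at kinetochores, protein assemblies built on centromeres, while the spindle checkpoint holds the cell until every kinetochore is attached. The anaphase-promoting complex, an enzyme that marks proteins for destruction, then releases the chromosomes, and cytokinesis divides the cell. Most genes of this machinery are transcribed late in the cell cycle and are low in cells that have left it. Skeletal muscle cells leave the cell cycle for good as they differentiate and fuse.

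The 4 tables held 5950 to 5974 barcodes and 62627341 to 68898900 unique molecular identifiers (UMIs, each counting 1 captured RNA molecule). Each pair had 5946 to 5965 barcodes in common, 99.9% of the smaller table, so the tables were read as repeat libraries of 1 set of cells and counted as 1 sample. No p-value was therefore computed. Levels are UMIs per 1000000 (CPM), computed in each table and averaged, with the range over tables. Intervals are exact 95% intervals at the count of 1 table, and they cover counting error only. Cells were kept if they reached 1000 detected genes and had less than 10% of UMIs from mitochondrial genes, which left 5481 cells with a median of 11049 UMIs per table. Muscle genes were abundant, with Myod1 at 507 CPM, Des at 1165 CPM and Myog at 1803 CPM, and the satellite cell gene Pax7 stood at 57.1 CPM. Other markers of muscle stem or progenitor cells were uneven. Cd34 and Calcr were under 1 CPM, at 0.253 and 0.261 CPM. Myf5 (54.2 CPM), Sdc4 (54.4 CPM), Itga7 (49.7 CPM) and Vcam1 were above 1 CPM. Among markers of fibroblasts, endothelium, immune cells, pericytes and glia, 17 were under 1 CPM, with Tie1 at 0. The pericyte markers Cspg4 and Rgs5 were above it, at 12.3 and 5.25 CPM. The doublet caller marked 0 of 5481 cells, and no cell was removed as a doublet. Why it marked none was not tested, so doublets may remain.

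The mitosis genes were high where Myog was low and low where Myog was high, but not absent there. In the 2572 cells with Myog below 400 CPM the 50 members summed to 5844 CPM (5822 to 5852 over the tables). In the 579 cells with Myog at 400 to 1500 CPM they summed to 4981 CPM (4962 to 5002), and in the 2330 cells with Myog at 1500 CPM or more to 2112 CPM (2107 to 2114). Median depth was similar in the 3 ranges, at 10903, 11501 and 11087 UMIs. The ranges over tables did not overlap, but the tables share cells, so those ranges show library and sequencing spread only. The drop lay mostly between the second and the third range of Myog.

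Finer steps placed that drop. The summed level was 5123 CPM in the 361 cells with no Myog UMI, 6050 CPM in the 1514 cells above 0 and under 100 CPM of Myog, and 5478 CPM at 400 to 800 CPM. It was 4624 CPM at 800 to 1500, 3220 CPM at 1500 to 3000, 1575 CPM at 3000 to 6000 and 893 CPM (877 to 908) in the 334 cells at 6000 or more. Cells without a Myog UMI were also shallower, with a median of 8009 UMIs against 11945 in the next step. Along the same steps Cdkn1a, an inhibitor of cyclin-dependent kinases, went from 282 to 3210 CPM, and Ccnd1, a cyclin of the first growth phase, from 306 to 15.1 CPM. These steps were chosen after the data were seen.

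**Figure D1:**
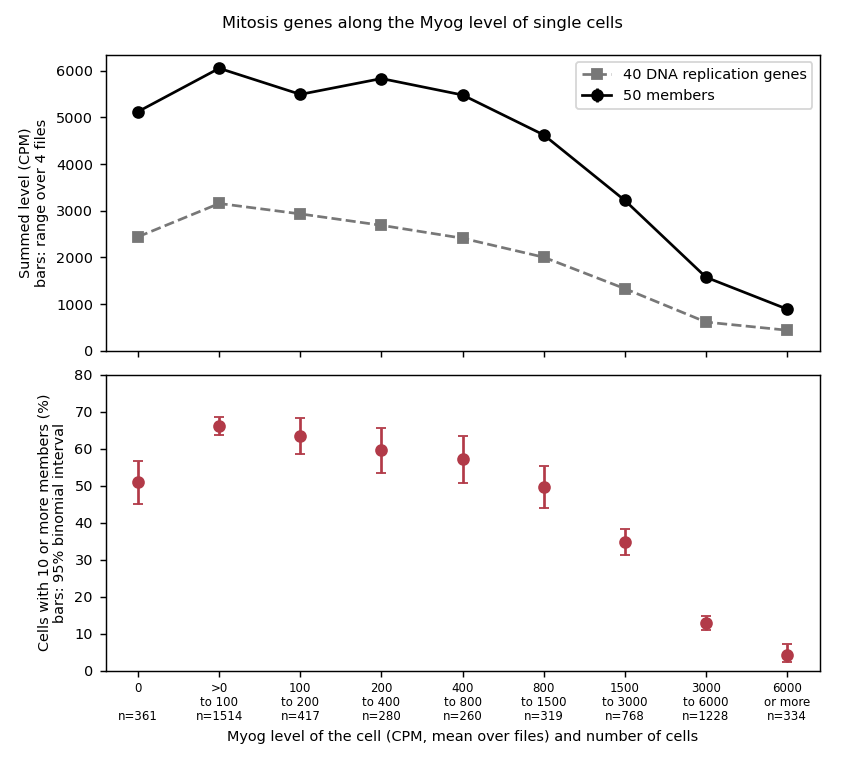
Summed level of the 50 members and of 40 DNA replication genes (upper panel, CPM, bars for the range over 4 tables) and percent of cells with 10 or more members detected at 5000 UMIs (lower panel, with exact 95% binomial intervals), both against the Myog level of the cell. The members stay between 5123 and 6050 CPM below 800 CPM of Myog and reach 893 CPM at 6000 or more.

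Single cells fell into those with few members and those with many. To set depth aside, a random 5000 UMIs were drawn from every cell in each table, which left out 284 shallower cells of the 5481 and kept 5197. With Myog below 400 CPM, 63.1% of cells (interval 61.1 to 65.0) had UMIs of at least 10 different members, and the median was 15 members. With Myog at 400 to 1500 CPM the share was 52.9% (48.7 to 57.2) and the median 11. With Myog at 1500 CPM or more it was 18.9% (17.3 to 20.6) and the median 2. Without thinning the shares in these ranges were 71.6%, 62.9% and 26.3%. In a given table, cells in which no member was detected at 5000 UMIs made up 2.22%, 4.40% and 14.7% of the 3 ranges. The number of members in a cell repeated well across tables, with a Pearson r of 0.96 over 5197 cells, and 95.04% to 95.6% of cells fell on the same side of 10 members in a pair of tables. Those tables share cells, so this measures library and sequencing spread only.

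**Figure D2:**
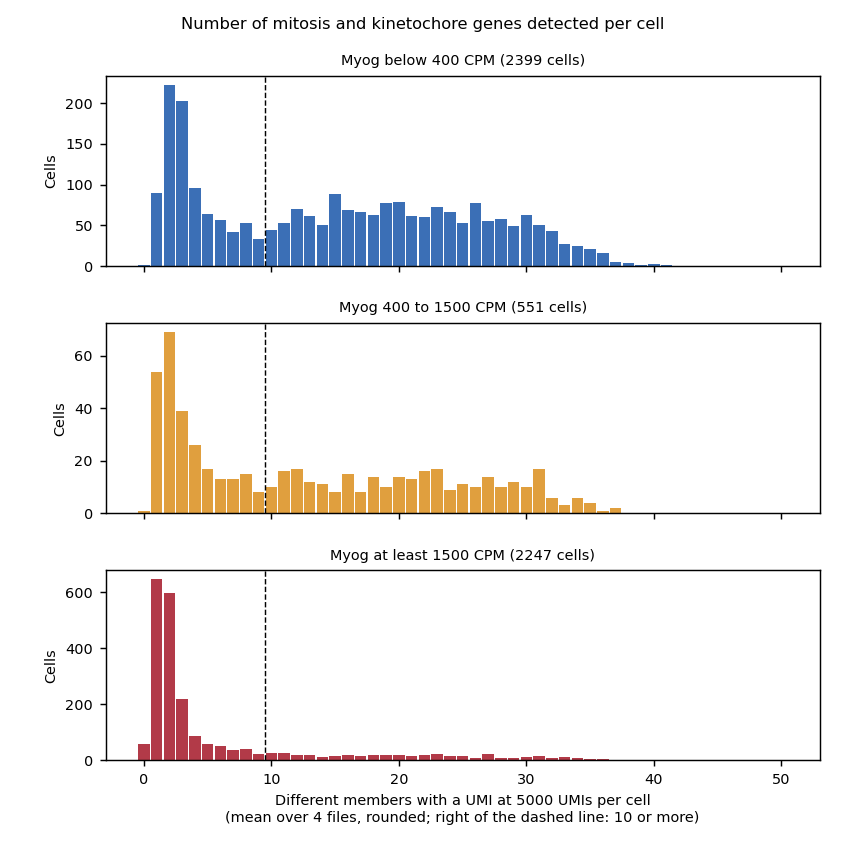
Number of cells by how many different members had a UMI at 5000 UMIs per cell (mean over 4 tables, rounded), in 3 ranges of Myog. Cells below 400 CPM form a peak at few members and a broad range past 10, with a median of 15, and cells at 1500 CPM or more pile up at a median of 2 with a long tail past 10.

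Gene by gene, nearly the whole set was lower at high Myog. Of the 50 members, 47 were lower by 2-fold or more in the same direction in every table when cells with Myog at 1500 CPM or more were set against cells below 400 CPM. Of all 12692 genes with at least 50 UMIs in every table, 17.4% were lower by that rule. All 50 members passed the count minimum. Log2 ratios, on the scale of CPM plus 1, had a median of -1.54 over the members and -0.28 over all genes. The lowest ratios were those of Ttk (-2.09), Ckap2 (-2.02), Kif20b (-1.99), Mki67 (-1.99) and Aurkb (-1.98). Those that did not reach 2-fold were Spc24 (-0.92), Bub3 (-0.72) and Pttg1 (-0.40). Other genes of the cell cycle showed the same direction, with 55 of 60 further mitosis genes (median -1.67) and 39 of 40 DNA replication genes (median -1.98) lower. Scaling by TMM factors or median-ratio size factors moved the median of all genes from -0.28 to 0.00. By either scaling 39 members then passed the rule, with medians of -1.25 and -1.24, beside 1545 and 1538 of the 12692 genes. The share of lower among all genes past 2-fold was 69.2% by CPM, 54.9% by TMM and 54.7% by median-ratio factors.

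Promoters of 3 members are printed to set the gene with the lowest ratio beside genes with smaller differences. Ttk had the lowest ratio, Ube2c was the most abundant regulator of the anaphase-promoting complex, and Ccnb2 is the cyclin with the smallest difference of the entry group. Each window runs from 250 bases before to 50 bases after a RefSeq start (GRCm38.p6), 5′ to 3′ on the gene's strand. Capitals mark 2 motifs on either strand, with overlapping matches counted. TTTGAA is the core of the cell cycle genes homology region, bound by complexes that repress these genes outside late cell cycle, and CCAAT is the site of the factor NF-Y. The genes themselves are Ttk (ENSMUSG00000038379), Ube2c (ENSMUSG00000001403) and Ccnb2 (ENSMUSG00000032218). The windows lie at chr9:83834439-83834738 (Ttk, plus strand), chr2:164769679-164769978 (Ube2c, plus strand) and chr9:70421505-70421804 (Ccnb2, minus strand), and each holds the gene's annotated start.
Ttk: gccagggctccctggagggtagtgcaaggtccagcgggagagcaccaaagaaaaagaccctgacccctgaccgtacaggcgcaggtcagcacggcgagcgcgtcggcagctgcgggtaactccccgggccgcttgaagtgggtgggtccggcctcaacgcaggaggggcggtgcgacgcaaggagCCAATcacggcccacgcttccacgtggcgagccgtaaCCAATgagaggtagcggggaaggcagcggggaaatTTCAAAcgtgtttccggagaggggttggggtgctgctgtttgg
Ube2c: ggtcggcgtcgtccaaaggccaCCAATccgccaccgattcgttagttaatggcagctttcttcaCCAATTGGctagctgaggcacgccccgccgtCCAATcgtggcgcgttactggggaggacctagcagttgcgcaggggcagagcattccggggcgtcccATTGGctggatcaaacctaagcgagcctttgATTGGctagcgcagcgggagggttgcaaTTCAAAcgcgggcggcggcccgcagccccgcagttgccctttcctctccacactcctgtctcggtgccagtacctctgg
Ccnb2: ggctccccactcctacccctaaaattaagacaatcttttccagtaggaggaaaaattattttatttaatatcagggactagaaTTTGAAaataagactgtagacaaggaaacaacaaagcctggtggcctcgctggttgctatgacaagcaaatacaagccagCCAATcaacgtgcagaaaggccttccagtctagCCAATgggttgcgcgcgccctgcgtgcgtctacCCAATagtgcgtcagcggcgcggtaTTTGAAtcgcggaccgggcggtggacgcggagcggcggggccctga

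Windows were found for 41 of the 50 members, the others being Cdc25c, Smc4, Aurkb, Tpx2, Spc24, Ccna2, Kif20a, Foxm1 and Incenp. TTTGAA was present in 30 of the 41 (73.2%), against 20.2% of 27025 genes with a window. CCAAT was present in 31 (75.6%) against 41.1%, and both motifs in 26 (63.4%) against 7.97%. The gene's start in GENCODE lay inside a window for 36 of the 41, and outside for Cdca8, Kif2c, Kif4, Mad2l1 and Pttg1, whose windows enter the counts above but do not show the sequence before that start. The windows of Ttk, Ube2c and Ccnb2 hold both motifs. Those of Birc5, Nuf2, Nusap1 and Tacc3 hold neither, and these genes were also lower by 2-fold or more. Neither motif was found for Mad2l1 and Pttg1 either, whose windows miss the GENCODE start. Mad2l1 was lower by 2-fold or more (-1.41) and Pttg1 was not (-0.40). The median log2 ratio was -1.58 for members with TTTGAA and -1.47 for the 11 without, -1.49 with CCAAT and -1.54 without, and -1.52 both with and without the pair of motifs. A match is a string of letters and was not tested as a binding site.

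In the role groups that follow, members counted as lower passed the 2-fold rule by CPM, by which 17.4% of 12692 genes were lower. With TMM or median-ratio factors 39 of 50 members passed, and these were not counted by group. Mitotic entry kinases, cyclins and activators were all lower, 11 of 11, and summed to 1154 CPM below 400 CPM of Myog, 990 CPM in the middle range and 452 CPM at 1500 or more. Cks2, a small binding partner of Cdk1, was the most abundant in low-Myog cells with Cks1b, its paralog, beside it. Cks1b, the most abundant over all kept cells (168 CPM), went from 230 to 96.7 CPM (log2 ratio -1.24). Cdk1, the kinase at the centre of mitotic entry, measured 206, 209, 206 and 207 CPM in replicates 1 to 4 below 400 CPM of Myog and 72.8, 73.6, 74.7 and 71.9 CPM at 1500 or more. Its 2 sets of values did not overlap, but the tables share cells, so their spread shows library and sequencing only. The log2 ratio of Cdk1 was -1.49 (interval -1.56 to -1.41). A Cdk1 UMI was found in 47.9% and 16.9% of cells at 5000 UMIs, and in 63.8% and 25.4% without thinning.

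Foxm1, a transcription factor that drives many of the other members, had the strongest fall of this group. It measured 17.9, 17.1, 19.1 and 17.6 CPM in low-Myog cells and 4.36, 4.02, 4.76 and 4.16 CPM in high-Myog cells (log2 ratio -1.83, interval -2.07 to -1.59). Ccnb2, a B-type cyclin, had the weakest, at 97.8, 94.3, 93.9 and 95.3 CPM against 45.2, 43.8, 44.5 and 46.5 CPM (log2 ratio -1.07). Its partner in function Ccnb1 was close to it at -1.12, and the A-type cyclin Ccna2 stood at -1.23. The remaining members, the kinases Plk1 and Aurka and the phosphatases Cdc25b and Cdc25c that activate Cdk1, lay between -1.49 (Aurka) and -1.14 (Cdc25b).

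Partners of the anaphase-promoting complex split. Ube2c, the enzyme that passes ubiquitin to its targets, was the most abundant of the 3 at 312, 310, 309 and 309 CPM in low-Myog cells and 146, 146, 143 and 140 CPM in high-Myog cells (log2 ratio -1.10). Cdc20, which activates the complex in mitosis, went from 115 to 40.6 CPM (-1.48). Pttg1, or securin, holds back the enzyme that cuts sister chromatids apart until the complex destroys it. It measured 29, 28, 27.5 and 27.9 CPM in low-Myog cells and 21, 20.4, 20.7 and 22 CPM in high-Myog cells, a log2 ratio of -0.40 (interval -0.55 to -0.26), smaller than the median of its group and of the set. Beside this ratio stands the median of all genes, which was -0.28 by CPM and 0.00 by the other scalings.

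Among spindle checkpoint genes, 4 of 5 were lower. Ttk, the kinase also called Mps1 that starts the checkpoint at unattached kinetochores, measured 22.8, 23.2, 22.6 and 23.8 CPM in low-Myog cells and 4.61, 4.64, 5.18 and 4.31 CPM in high-Myog cells (log2 ratio -2.09, interval -2.31 to -1.85). Bub1b (-1.61), Bub1 (-1.47) and Mad2l1 (-1.41), which carry the signal, followed it. Bub3, the beta-propeller protein that brings Bub1 and Bub1b to kinetochores, was the most abundant of the 5 and differed from its partners. It measured 119, 118, 123 and 121 CPM against 73.5, 70.5, 74.2 and 73 CPM, a log2 ratio of -0.72 (interval -0.80 to -0.64). A Bub3 UMI was found in 41.7% and 28.7% of cells at 5000 UMIs, and a Ttk UMI in 9.54% and 1.82%. Without thinning those shares were 66.9% and 52.1% for Bub3 and 21.2% and 4.61% for Ttk. No cell class that should lack these genes was present to give a background for such shares.

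At the centromere and kinetochore 6 of 7 genes were lower. Cenpe, the motor that carries chromosomes along the spindle, had the strongest fall at 124, 122, 122 and 116 CPM against 32.4, 30.4, 31.5 and 32.4 CPM (log2 ratio -1.90). Cenpf, a large protein of the outer kinetochore, went from 237 to 91.2 CPM (-1.37) and Cenpa, the histone that marks centromeres, from 172 to 77.8 CPM (-1.14). The 4 subunits of the Ndc80 complex, which binds microtubules and is needed as a whole, did not keep 1 ratio. Ndc80 (-1.63), Spc25 (-1.56) and Nuf2 (-1.53) lay together, while Spc24 was at 223, 224, 226 and 224 CPM in low-Myog cells and 117, 120, 116 and 117 CPM in high-Myog cells (-0.92, interval -0.98 to -0.86). Spc24 was also the most abundant of the 7 over all kept cells, at 177 CPM against 64.0 for Spc25, 32.6 for Nuf2 and 25.9 for Ndc80. UMI counts tag 1 end of each molecule, so these levels need no division by length, but reads from introns, if counted, would raise long genes.

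Genes of the chromosomal passenger complex, which corrects wrong attachments and later moves to the midzone of the spindle, were lower in 4 of 4 cases. Birc5, or survivin, was the most abundant at 255, 249, 254 and 248 CPM against 84.8, 81.7, 85.9 and 83.2 CPM (log2 ratio -1.57). Aurkb, the kinase of the complex, had the strongest fall, at 53.3, 54.9, 54.1 and 55.7 CPM against 12.8, 13.5, 13.3 and 12.6 CPM (-1.98, interval -2.14 to -1.83). Cdca8, or borealin, had the weakest, from 136 to 63.3 CPM (-1.10), and the scaffold Incenp stood at -1.82. The intervals of Aurkb and Incenp (-1.94 to -1.70) overlapped. Those of Birc5 (-1.64 to -1.51) and Cdca8 (-1.18 to -1.02) lay apart from them and from each other. These intervals cover counting error only.

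Spindle motors and microtubule binders made up the largest group, and 13 of 13 were lower, from 1181 CPM summed in low-Myog cells to 366 CPM in high-Myog cells. Ckap2, a microtubule stabiliser, measured 87.1, 87.5, 89.3 and 86.9 CPM against 19.8, 20.2, 21.8 and 21.6 CPM (log2 ratio -2.02), and Kif20b, a motor needed to finish cytokinesis, 66.2, 63.4, 63.4 and 65 CPM against 16.2, 15, 14.9 and 15.8 CPM (-1.99). Prc1, which bundles midzone microtubules, was the most abundant over kept cells (155 CPM) and went from 226 to 70.2 CPM (-1.67). Motors Kif23 (-1.92), Kif4 (-1.85), Kif11 (-1.83), Kif20a (-1.64) and Kif2c (-1.55) and the binders Ckap2l (-1.64), Tpx2 (-1.62) and Nusap1 (-1.52) lay between. Tacc3 (-1.37) and Hmmr (-1.37), both spindle assembly factors, had the weakest falls.

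Both cytokinesis genes were lower, Anln, which organises the contractile ring, at -1.85 and Ect2, which activates the small GTPase that drives it, at -1.59. All 5 chromosome structure genes were lower. Top2a, the topoisomerase that untangles sister chromatids, was the most abundant member of the whole set at 387, 383, 384 and 386 CPM in low-Myog cells and measured 123, 125, 123 and 123 CPM in high-Myog cells (log2 ratio -1.63). Mki67, the proliferation marker Ki-67 that coats mitotic chromosomes, measured 240, 242, 234 and 240 CPM against 57.2, 62.5, 59.4 and 58.7 CPM (-1.99). Condensin genes Ncapd2 (-1.81), Smc4 (-1.63) and Smc2 (-1.48) completed the group. A Top2a UMI was found in 50.5% and 15.5% of cells at 5000 UMIs, and in 60.7% and 23.2% without thinning.

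**Figure D3:**
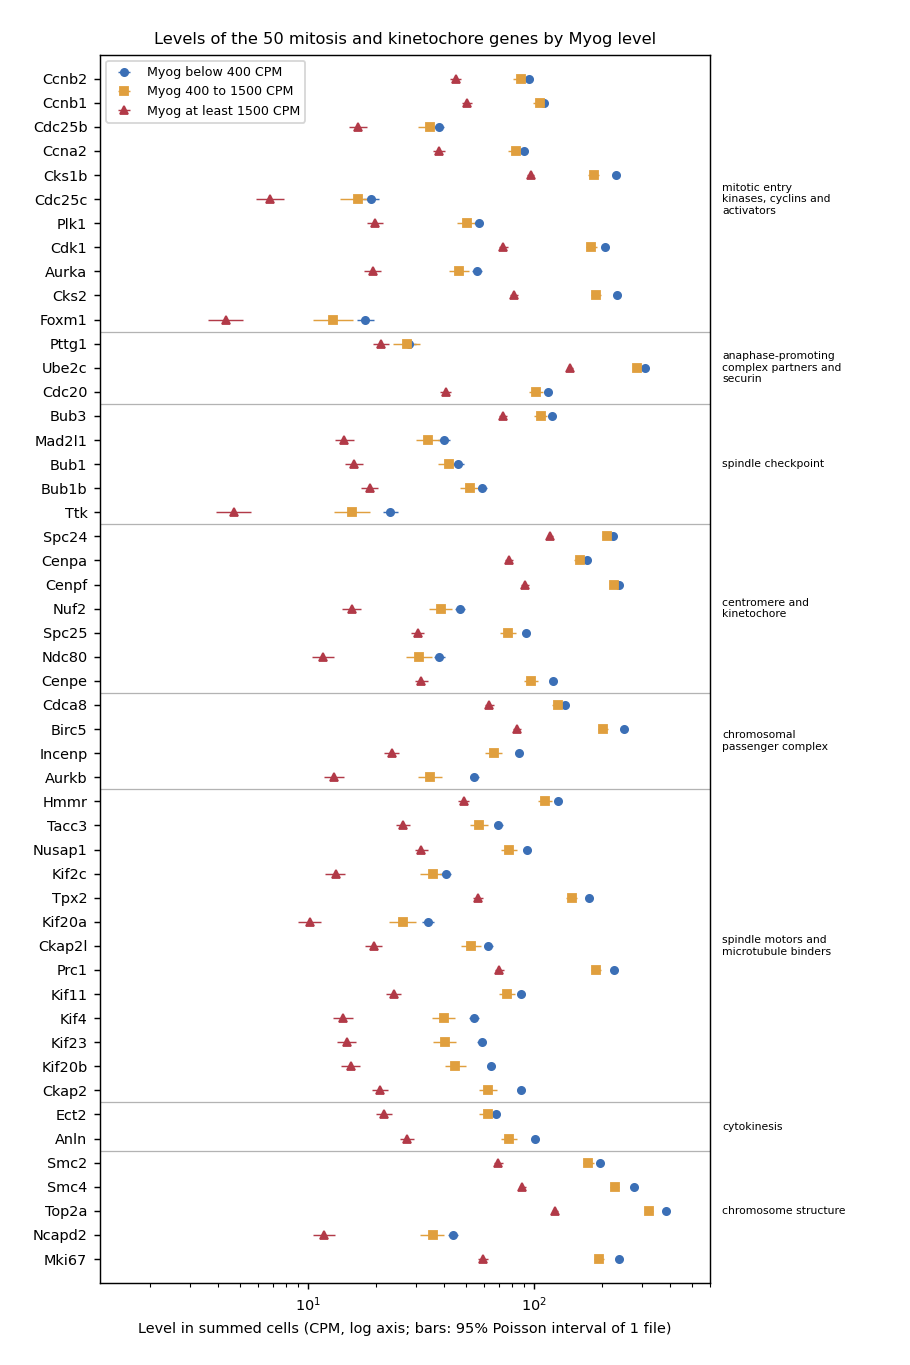
Level of each member (CPM, log axis) in cells with Myog below 400, at 400 to 1500 and at 1500 CPM or more, grouped by role, with bars for the exact 95% Poisson interval of 1 table. High-Myog cells are lowest for every member, and the points lie closest together for Pttg1 (28.1, 27.4 and 21.02 CPM).

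Cells with a middle level of Myog still carried RNA of the machinery, with the members at 4981 CPM summed against 5844 CPM at low Myog. At 400 to 1500 against below 400 CPM of Myog, 0 of 50 members were lower or higher by 2-fold, where 2.23% of 11998 genes were lower and 3.10% were higher. Calls were that rare among all genes, so this count does not set the members apart. Median log2 ratios were -0.26 over the members and -0.07 over all genes, and the interval lay below 0 for 40 members and held 0 for 10. Over all genes such intervals were not counted. Aurkb had the lowest ratio (-0.64, from 54.5 to 34.6 CPM) and Pttg1 the highest (-0.03). Kif23 (-0.54), Ttk (-0.53) and Kif20b (-0.51) were next to Aurkb, all of which were also among the lowest at high Myog. DNA replication genes had a lower median than the members in this range, at -0.50.

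Deep cells contributed part of the level at high Myog. Of the 2330 cells with Myog at 1500 CPM or more, the 468 with 15000 UMIs or more summed to 3021 CPM of members, and the 1862 below that depth to 1655 CPM (1651 to 1658). In the latter, 48 of 50 members were lower by 2-fold or more against cells below 400 CPM of Myog, beside 20.0% of 12415 genes, with a median of -1.997 against -0.30 over all genes. With both sides under 15000 UMIs it was 47 of 50, beside 19.7% of genes, with a median of -1.69. By TMM or median-ratio factors it was 39, beside 1641 and 1664 of 11957 genes. Lower genes were then 72.1% of all genes past 2-fold by CPM, 56.9% by TMM and 57.7% by median-ratio factors. With both sides limited, the lowest ratios were those of Aurkb (-2.43), Ttk (-2.36), Kif20b (-2.31), Mki67 (-2.27) and Ckap2 (-2.22). Against all low-Myog cells they were those of Kif20b (-2.76), Aurkb (-2.75), Ttk (-2.64), Cenpe (-2.61) and Mki67 (-2.60). High UMI totals can mark doublets. Without the 5% of cells with the highest doublet scores, from the caller that marked no cell, high-Myog cells summed to 1845 CPM with a median ratio of -1.76.

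Persisting members were defined as those above -1 in these shallower high-Myog cells against all low-Myog cells. Pttg1 (chr11:43420250-43426251, minus strand, GRCm38) met this at -0.36 and 21.6 CPM, and Bub3 (chr7:131560222-131571895, plus strand) at -0.79 and 69.3 CPM. Spc24 (chr9:21755442-21760303, minus strand) lay on the limit at 112 CPM against 224 CPM, and Ccnb2 was next at -1.18. With both sides under 15000 UMIs Spc24 was at -0.91 and counted as persisting, which gave 3 members. It did so too when replicate 3 or replicate 4 was left out, with a limit of 12000 UMIs or none, with a pseudocount of 5 CPM and with the stricter cell filter. With TMM factors the count was 5, adding Ccnb2, Cenpa and Spc24, and with median-ratio factors 8, adding Cks1b, Ube2c and Cdca8 to these. Among all genes past 2-fold the share of lower was 73.3% by CPM, 60.0% by TMM and 57.4% by median-ratio factors. Pttg1 and Bub3 persisted under every alternative run for this count.

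Cells were next classed by 2 lists that hold no member. These were 60 other mitosis genes and 40 DNA replication genes, each summed per cell at 5000 UMIs and called high in the top 25% of cells. The classes are ranges of a score, not cell types, and 311 and 253 cells lay within 1 UMI of the 2 cuts. Members followed the mitosis list. They summed to 1253 CPM in the 3333 cells high in neither list, 3850 CPM in the 540 high in replication only, 8924 CPM in the 772 high in both and 11967 CPM in the 552 high in mitosis only. The class high in neither held 41.2% of cells below 400 CPM of Myog, 60.3% at 400 to 1500 and 89.6% at 1500 or more.

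Among cells rich in other mitosis genes the summed level of the members was not lower at high Myog. Among all cells high in the mitosis list, the members summed to 11937 CPM in the 117 cells with Myog at 1500 CPM or more and under 15000 UMIs and to 9845 CPM in cells below 400 CPM. Their median log2 ratio was 0.25, beside -0.14 over 8158 genes, and the interval lay above 0 for 21 members and below 0 for 0. Such intervals were counted for members only. Cdca8 (0.81, interval 0.60 to 1.01) and Ccna2 (0.75, 0.49 to 1.01) were the highest, and Ttk (-0.63, -1.38 to 0.12) and Ncapd2 (-0.52, -1.06 to 0.05) the lowest. The mix of classes differed, since 76 of the 117 cells were high in mitosis only, against 340 low-Myog cells in that class and 621 high in both lists. In cells high in mitosis only the sums were 12220 CPM (11911 to 12547) at high Myog and 12281 CPM (12200 to 12452) at low Myog, and the ranges overlapped. In cells high in both lists they were 11412 CPM (11156 to 11590) in 41 cells and 8510 CPM (8445 to 8546). Those 117 cells were chosen by a list of the same process, and the classes were compared in 1 sample.

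Within cells high in neither list, members were lower at high Myog. They summed to 916 CPM in 1643 high-Myog cells under 15000 UMIs and to 1682 CPM in 988 low-Myog cells. These 2 sides also differed in the lists that set the class. Median UMIs of the replication and mitosis lists were 2 and 1 at high Myog, against 4.5 and 2.125 at low Myog. The part of this difference in the ratios was not tested. The median log2 ratio over the 50 members was -0.99, of which 44 passed the count minimum, and it was -0.24 over the 9837 genes that passed. The interval lay below 0 for 49 members and held 0 for Cdca8 (-0.22), a count made for members only. On the scale of CPM plus 1, Ckap2 (-1.95) and Cenpe (-1.91) were the lowest. Near 1 CPM the added 1 pulls ratios toward 0, so this order is not firm. Kif20b went from 6.68 to 1.34 CPM (-1.70) and Ttk from 2.68 to 0.609 CPM (-1.15). These cells held 50.6% of the member UMIs of all high-Myog cells under 15000 UMIs.

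That thin remainder was uneven. In the 1643 cells Spc24 stood at 87.6 CPM, Ube2c at 78.1, Cks1b at 75.9, Bub3 at 60.0 and Cenpa at 52.7 CPM. Ttk stood at 0.609 CPM and Aurkb at 0.974 CPM. The other subunits of the Ndc80 complex were far under Spc24, with Spc25 at 8.06, Nuf2 at 6.36 and Ndc80 at 2.56 CPM. In cells high in mitosis only the same 4 genes stood at 355 (Spc24), 188 (Spc25), 83.6 (Nuf2) and 72.5 (Ndc80) CPM, so the ratio between subunits differed between the classes. Free RNA in droplets can add UMIs to any cell, and its part was not tested.

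**Figure D4:**
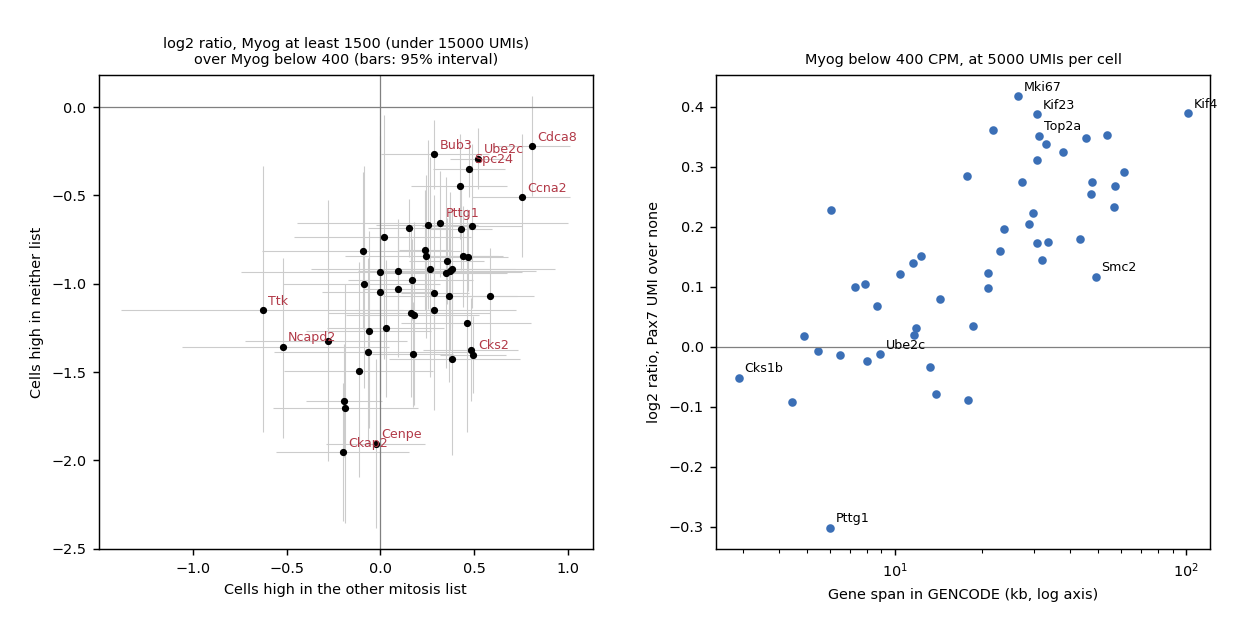
Left, log2 ratio of each member between high-Myog cells under 15000 UMIs and low-Myog cells, among cells high in the other mitosis list (x axis) and among cells high in neither list (y axis), with exact 95% intervals. Members centre on 0.25 on the x axis and on -0.99 on the y axis. Right, log2 ratio between low-Myog cells with and without a Pax7 UMI against gene span in kb (log axis), where longer genes lie higher.

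From replication-rich to mitosis-rich cells the members differed by unequal amounts. Between cells high in replication only and cells high in mitosis only, the interval of the log2 ratio lay above 0 for 49 of 50 members, with a median of 1.71. The mitosis class was picked by genes of the same process, so this direction was largely set by the choice of classes. No such count was made over all genes. Cenpf (2.98), Cenpe (2.82), Nusap1 (2.70), Prc1 (2.56) and Plk1 (2.46) had the largest differences. Cks1b (0.31), Spc24 (0.65), Mad2l1 (0.66), Bub3 (0.76) and Foxm1 (0.79) had small ones. In cells high in replication only, Cks1b was already at 258, Spc24 at 226, Mad2l1 at 41.4 and Bub3 at 109 CPM. Pttg1 (0.21) was the member whose interval held 0. It was nearly level through the 4 classes, at 26.3, 25.5, 24.4 and 29.5 CPM.

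**Figure D5:**
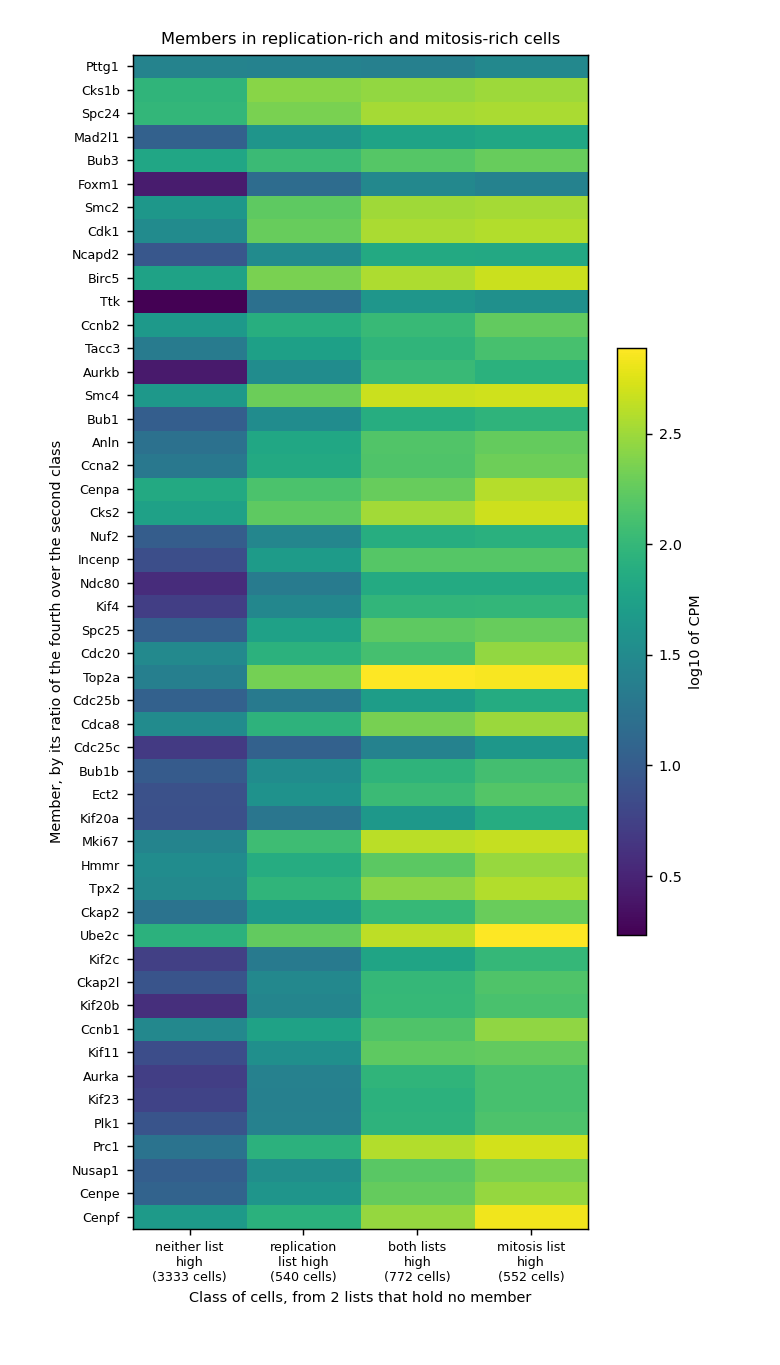
Level of each member (log10 of CPM, colour) in 4 classes of cells set by lists that hold no member, with members ordered by the log2 ratio of mitosis-rich over replication-rich cells. Pttg1 is level in the top row and Cenpf, in the bottom row, goes from 85.5 to 679 CPM between these 2 classes.

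Across 5197 cells at equal depth the members moved together. As a description over cells that share libraries, the median Pearson r of log2 UMIs over 1225 pairs was 0.53. The closest pair was Prc1 with Top2a at 0.87. Pttg1 stood apart, with a mean r of 0.02 to the other members, while Tpx2 and Mki67 had the highest mean r, at 0.63. Of 11575 genes that are no member, those most like the number of members per cell were Hmgb2 (r 0.90), Arl6ip1 (0.80), Pclaf (0.78), Knl1 (0.76) and Racgap1 (0.76). Those most opposed were the muscle genes Pgam2 (-0.51), Acta1 (-0.49) and Ldb3 (-0.49) with Aamdc (-0.49) and Dlg2 (-0.49).

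High-Myog cells that still had many members had less of several muscle genes. Among cells with Myog at 1500 CPM or more and under 15000 UMIs, a mean of 279 cells per table had 10 or more members and 1500 had fewer, with median depths of 9721 and 10457 UMIs. Myog was at 3143 and 4533 CPM in these groups, Cdkn1a at 1067 and 2480 CPM, and the embryonic myosin Myh3 at 274 and 1284 CPM. Cardiac actin Actc1 was at 927 and 3384 CPM and the fusion gene Mymk at 602 and 1317 CPM, while Myod1 was at 689 and 628 CPM. The replication clamp Pcna was at 83.8 and 16.6 CPM and the nuclear RNA Malat1 at 3944 and 9318 CPM. Malat1 was also lower in cells with 10 or more members below 400 CPM of Myog, at 5722 against 11500 CPM.

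At low Myog few genes of any kind differed by 1.5-fold with Pax7 detection. No member did, which does not set the members apart from other genes. Among cells below 400 CPM of Myog at 5000 UMIs, a mean of 884.75 cells per table had a Pax7 UMI and 1514.25 had none. By a rule of 1.5-fold in the same direction in every table, 0 of 50 members were higher and 0 lower, where 1.30% of 10013 genes were higher and 0.150% lower. The members summed to 5727 CPM (5547 to 5910) with a Pax7 UMI and 5159 CPM (4999 to 5315) without, while the share of cells with 10 or more members was 60.9% (57.6 to 64.1) and 64.4% (61.9 to 66.8), with intervals that overlapped. The median log2 ratio was 0.16, beside 0.08 over all genes, and 0.05 with TMM factors and 0.07 with median-ratio factors. In the same cells without thinning it was 0.43. Lower genes were 10.3% of all genes past 1.5-fold by CPM, 31.4% by TMM and 24.2% by median-ratio factors.

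Single members ranged from Mki67 (0.42, interval 0.31 to 0.53), Kif23 (0.39), Kif4 (0.39), Prc1 (0.36) and Kif20b (0.35) down to Pttg1 (-0.30), Cdk1 (-0.09), Cdc20 (-0.09), Ccnb2 (-0.08) and Cks1b (-0.05). Intervals lay above 0 for 17 members and below 0 for 0. They were not counted over all genes, whose median ratio was itself above 0 (0.08), so this count has no background. The order followed gene length, with a Spearman rho of 0.74 to the span of the gene over 50 members, and medians of 0.27 for the 25 longer and 0.03 for the 25 shorter genes. Malat1 moved with it, at 9266 CPM in cells with a Pax7 UMI and 7031 CPM without. The part of intronic reads in these differences was not tested. The log2 ratios between high and low Myog had a rho of -0.50 to span, with medians of -1.63 for longer and -1.37 for shorter genes.

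At higher Myog, the summed level of the members was higher in cells with a Pax7 UMI. At 400 to 1500 CPM of Myog, 85.5 cells per table with a Pax7 UMI summed to 6032 CPM and 465.5 without to 4354 CPM, and 17 of the 47 members that passed the count minimum were higher by 1.5-fold, beside 1.70% of 5869 genes. At 1500 CPM or more, 74.25 cells with a Pax7 UMI summed to 3579 CPM and 2172.75 without to 1869 CPM, and 42 of 48 members were higher, beside 8.21% of 9063 genes. In the middle range the share of cells with 10 or more members was 62.5% (51.4 to 72.8) and 51.2% (46.5 to 55.8). Those intervals overlapped. At 1500 CPM or more it was 42.4% (31.0 to 54.4) and 18.1% (16.5 to 19.8). Cells with a Pax7 UMI were deeper before thinning in both ranges, with medians of 13144 against 11574 and 15086 against 11195 UMIs. They had less Myog, with medians of 826 against 874 and 2370 against 3893 CPM, and the part of either was not tested. With TMM factors the counts of higher members were 8 and 31, beside 37 of 5869 and 400 of 9063 genes. With median-ratio factors they were 14 and 39, beside 76 and 572 genes. Lower genes were 26.5%, 74.8% and 38.2% of all genes past 1.5-fold by CPM, TMM and median-ratio factors in the middle range, and 28.3%, 63.1% and 42.9% at 1500 CPM or more.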

How the data were processed

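Single-cell RNA was captured with the 10x Chromium 3′ kit v3.1, per the labels' protocols. The deposited matrices hold whole-number UMI counts per gene and barcode, and the file headers give Cell Ranger 7.1.0 as the authors' software. The submitters' processing notes name Cell Ranger 3.1.0 and both mm10 and GRCm39, so version and build are unsettled, and whether intronic reads were counted is not given in the sources used here. Gene positions are from GENCODE M21 (GRCm38), matched by Ensembl identifier, and promoter windows from RefSeq (GRCm38.p6).

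The 50 members, the gene lists and the thresholds were chosen with earlier results of these data known. Counts were summed per table over cells, scaled to CPM and averaged over the 4 tables. Ratios used CPM plus 1 and genes with at least 50 UMIs in every table. The tables count as 1 sample, so no test was run, and the planned rule for independent tables was not used. No column of an unmapped sample was present. Intervals are exact Poisson, Clopper-Pearson or conditional binomial at 95%. Named are the most abundant, highest and lowest member of each role group, the 5 extremes of the high-Myog and Pax7 ratios, persisting members and like genes, and the rest by range. Doublets were scored by Scrublet in scanpy 1.11.5 at an expected rate of 5%. Scripts used Python 3.11.15, numpy 2.4.6 and scipy 1.17.1 and were tested on simulated data. Of the markers of other tissues, 1 is not reported here.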

Additional observations from a re-analysis of the deposited data

Results flagged for a closer look

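Among 59 values compared over the 4 tables, 4 had 1 table apart from the other 3 by a gap beyond Dixon's 95% limit, where chance gives about 5%. The summed level of the members below 400 CPM of Myog was 5822 CPM in replicate 4 and 5851 on average in the others. Cdk1 was at 147.8 CPM in replicate 2 (others 146), Spc24 at 175.4 CPM in replicate 1 (others 177) and Kif4 at 34.4 CPM in replicate 1 (others 35.8). The 463 barcodes left out by the cell filter held a mean of 1395 member UMIs per table, with all 50 members present, at 2583 CPM after mitochondrial UMIs were removed, against 4304 CPM in kept cells.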

How the results depend on the processing

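Of 145 alternative values of the summed levels, medians, counts and shares, 95 stayed within their intervals or 1.5 times their count, 50 moved and 0 reversed direction. For 50 single members, 293 of 500 stayed, 207 moved and 0 reversed. With cells of 1500 or more genes and less than 5% mitochondrial content, the summed levels in the 3 Myog ranges were 6038, 5252 and 2392 CPM, the high-Myog median was -1.41, and 66.1% and 22.1% of cells in the lowest and highest range had 10 members. Without the 5% of cells with the highest doublet scores the high-Myog values were 1845 CPM, -1.76 and 16.0%. Without cells poor in Malat1 the lowest and highest range summed to 5902 and 2052 CPM. Myog edges of 300 and 2000 gave 5816, 4758 and 1895 CPM and -1.71. Thinned cells gave 5368, 4617 and 1926 CPM, and means of per-cell CPM 5197, 4576 and 1922 CPM. TMM and median-ratio factors gave medians of -1.25 and -1.24 and 5 and 8 persisting members, and a pseudocount of 5 CPM gave -1.41. Shares with 10 members in the 3 ranges were 50.4%, 42.0% and 14.7% at 3000 UMIs, 75.3%, 61.3% and 22.3% at 8000 UMIs and 71.6%, 62.9% and 26.3% without thinning. They were 74.6%, 65.9% and 28.6% for 5 members and 50.9%, 41.4% and 14.2% for 15. The Pax7 median was 0.43 without thinning, with the Pax7 groups also set on unthinned counts. With only cells under 15000 UMIs, an alternative chosen after seeing the data, the values were 4848, 4112 and 1655 CPM, -1.69, and 56.2%, 46.5% and 15.7%.

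Leaving out each table in turn gave 5829 to 5858, 4945 to 5032 and 2097 to 2129 CPM, medians of -1.55 to -1.54 at high Myog, -0.27 to -0.24 at middle Myog and 0.13 to 0.17 for Pax7. It gave 47 to 47 lower members and 2 to 3 persisting members, with Spc24 added without replicate 3 or 4. Shares were 63.0% to 63.3%, 52.5% to 53.4% and 18.7% to 19.2%. The cause of these shifts was not tested. No paired analysis was possible because the tables form 1 group of shared cells. Variation between animals, cultures and sorts was not measured.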
